A study of Brassica oleracea var. italica with 48 samples.

Results

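Roots of broccoli plants that kept their potassium were sampled on days 1, 3 and 6 of a starvation experiment, and their RNA was compared between those days. They made up 12 of the 48 RNA-seq libraries, 4 for each day, and were chosen by their labels for tissue, treatment and day. All plants were wild-type broccoli (Brassica oleracea var. italica). Seedlings had grown for 6 days on plates of MS medium, then for 7 days in hydroponics at 2 mM K2SO4, and the light period was 16 h with a dark period of 8 h. Days count from the moment when the other plants were moved to a medium free of potassium, and control plants stayed with potassium. The labels do not say whether their medium was renewed, so that day, plant age and handling cannot be told apart. They also do not say that the 4 libraries of a day, lettered a to d, came from separate plants, so the spread behind every p-value is that of these samples and may be technical. Set beside the control roots were 12 libraries of starved roots, whose plants had been moved to the potassium-free medium, 12 of control leaves and 12 of starved leaves, from the same 3 days.

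A young root grows from a meristem at its tip, and behind the tip its cells elongate, mature and form root hairs and lateral roots. Potassium is the most abundant cation inside plant cells and enters roots in Arabidopsis through the channel AKT1 and the high-affinity transporter HAK5. Roots that are fed potassium and followed for several days give the background of time against which any response to starvation is read. In whole roots, fewer cells of a type and less RNA per cell cannot be told apart.

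Levels were in TPM, reads per length scaled to the same total in every library. Tested were the 28312 features with an ID beginning with Bo that reached 1 TPM or more in at least 4 of the 12 libraries. A further 16048 of the 59225 Bo features were at 0 in all 12 libraries, and 14865 were above 0 but were not tested. A difference was called at a limma adjusted p under 0.05 on log2(TPM + 1), a scale that understates changes of features with few TPM. The files do not pair the IDs with gene symbols, so features go by their ID, no role is given for them, and root and leaf markers were not analysed here. By the moderated F test, 2305 of the 28312 features (8.14%) differed among the 3 days.

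Libraries were of like depth, with 17804694 to 19723446 reads, but 3 of the 12 stood apart. These were library a of day 1 and libraries a and c of day 6. Their first principal component, which held 52.0% of the variance, was -103.7, -60.19 and -56.67, against 12.38 to 36.11 in the other 9. Across the tested features, the deviation of a library from the feature mean was correlated with coding length, with a Spearman rho of -0.546, -0.365 and -0.426 in the 3 libraries and of 0.144 to 0.346 in the other 9. In the 3 libraries the quartile of longest features was low, with median deviations of -0.70, -0.37 and -0.39 on the log2 scale, against 0.13 to 0.24 in the others. What set these libraries apart was not tested. Counts of calls are therefore given with all 12 libraries and without these 3, which leaves 3, 4 and 2 libraries on days 1, 3 and 6. The median SD over features was 0.324, 0.148 and 0.232 on days 1, 3 and 6, on the log2(TPM + 1) scale.

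**Figure D1:**
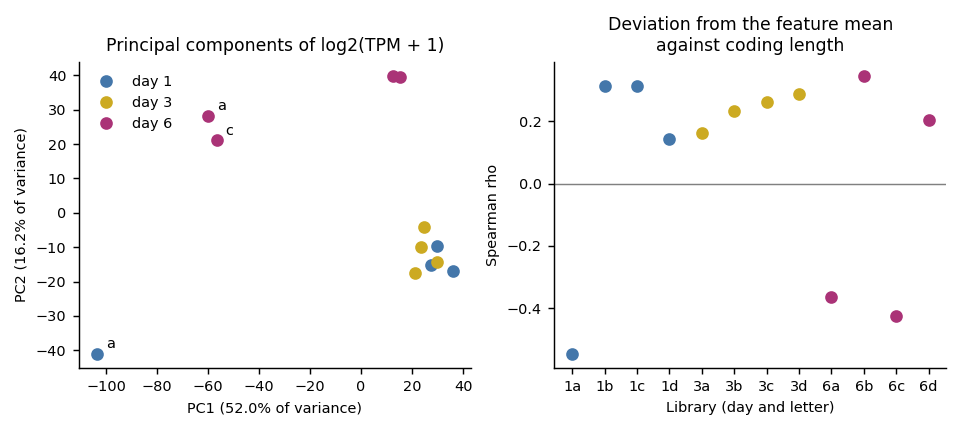
Left, the first 2 principal components of log2(TPM + 1) over the 12 control root libraries, 1 point per library, coloured by day and with letters for the 3 libraries below 0 on the first axis. Right, Spearman rho across features between the deviation of each library from the feature mean and coding length, where library a of day 1 and libraries a and c of day 6 are the 3 below 0.

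The comparison of day 3 with day 1 asked what had changed by the middle of the series, and its count of calls depended on the libraries used. On day 3, 102 features were higher (0.36% of those tested) and 81 were lower (0.286%), 183 in all (0.646%). The rises were the larger changes, with a median of 1.36 on the log2 scale, against -0.82 for the falls and 0.08 over all features tested. A log2 difference of at least 1 was reached by 73 of the 102 rises and 20 of the 81 falls. In 100 of the rises and all 81 falls, the 4 libraries of one day did not overlap with the 4 of the other, which passing the test nearly implies; over all 28312 features, day 3 lay wholly above day 1 for 1223 (4.32%) and wholly below it for 1382 (4.88%). Of the 102 rises, 55 (53.9%) averaged under 1 TPM in control leaves, as did 18 of the 81 falls (22.2%) and 24.5% of all features tested.

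The largest rise on day 3 was that of Bo3g168910. It had 6.95, 3.79, 10 and 36.4 TPM on day 3, against 0.225, 0.189, 0.129 and 0.949 TPM on day 1. Every day 3 library was higher than every day 1 library. Features named for a comparison between days were taken only from those without overlap, so this is no added result. Library d was the highest of its day on both days. The log2 difference was 3.06 (SE 0.47, limma adjusted p = 0.0218). Its day 1 levels rested on 2 to 15 reads, and its day 3 levels on 61 to 579 reads.

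Bo2g080620 had the next largest rise, with day 3 levels of 35.3, 12.8, 32.4 and 81.8 TPM and day 1 levels of 2.46, 2.59, 2.91 and 7.8 TPM. Here too library d was the highest on both days. Its log2 difference was 2.91 (SE 0.46, limma adjusted p = 0.0218).

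The largest fall by day 3 was that of Bo7g097500, a feature at 3.8, 2.15, 6.07 and 3.32 TPM on day 3, against 15.1, 11.2, 17.5 and 26.4 TPM on day 1. All 4 day 3 libraries lay under the lowest day 1 library, as the naming rule required. The log2 difference was -1.94 (SE 0.33, limma adjusted p = 0.0257). Bo3g027470, a more abundant feature, had day 3 levels of 160.8, 220.9, 223.9 and 158.4 TPM, against 820.9, 421.2, 434.6 and 879.3 TPM on day 1. Its log2 difference was -1.67 (SE 0.28, limma adjusted p = 0.0257), and over the 3 days the features had trends of -0.56 and -0.48 per day (limma adjusted p = 8.38e-04 for each).

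Without the 3 libraries that stood apart, 1875 features were called between day 3 and day 1, 505 higher (1.78%) and 1370 lower (4.84%), and all 183 were among them, whereas voom on recovered reads called 163, 74 higher and 89 lower. The 183 calls became 306 without library a of day 1, 26 and 61 without c and d of day 1, 116, 102 and 93 without a, b and c of day 6, and 0 without b of day 1 or a or c of day 3, where 4116, 3168 and 3089 features had an unadjusted p under 0.05. None of the 4 named features was called without library b or c of day 1 or a or c of day 3, nor in a fit of only the 8 libraries of these days, with or without the letter as a block, Bo7g097500 and Bo3g027470 also not without d of either day, and Bo3g168910 also not by voom (limma adjusted p up to 0.127 over these settings).

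Between day 6 and day 3, most calls in the main fit were falls. The margin varied with the scaling and was gone once the trend of each library with coding length was removed. Day 6 was higher than day 3 for 497 features (1.76%) and lower for 1581 (5.58%), 2078 in all (7.34%). This comparison shares the 4 day 3 libraries with the one between day 3 and day 1. The median of all tested features was itself -0.14 on the log2 scale. Relative to that median, the 497 rises had a median of 0.82 and the 1581 falls one of -0.64. The 4 and 4 libraries did not overlap for 478 of the rises and 1516 of the falls, which passing the test nearly implies. Over all 28312 features day 6 lay wholly above day 3 for 1717 (6.06%) and wholly below it for 4385 (15.5%).

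Bo9g177190 rose most by day 6. Its day 6 libraries held 214.3, 136.1, 161.2 and 122.5 TPM, against 29.3, 32.4, 36.5 and 41.7 TPM on day 3. The lowest day 6 library was above the highest day 3 library, as the naming rule required. The log2 difference was 2.13 (2.27 relative to the median of all, SE 0.27, limma adjusted p = 0.00298). Between day 3 and day 1 its log2 difference was 0.41 (SE 0.27, limma adjusted p = 0.528).

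Bo3g052490 had 128.1, 46.7, 47.2 and 18.5 TPM on day 6, against 11.9, 14, 11.6 and 5.72 TPM on day 3. The naming rule required that the groups not overlap, but the day 6 libraries were spread widely, with a high library a and a low library d. Library a of day 6 is among the 3 that stood apart. Without those 3 the log2 difference was 1.43 (SE 0.38, limma adjusted p = 0.0358). With all 12 libraries the log2 difference was 2.12 (2.26 relative to the median of all, SE 0.45, limma adjusted p = 0.0173). The limma adjusted p was 0.0511 without library c of day 3.

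The largest fall by day 6 was that of Bo3g168910, the feature with the largest rise on day 3. It stood at 0.0562, 0.378, 0.168 and 0.624 TPM on day 6, against the 3.79 to 36.4 TPM of day 3 given above. The log2 difference was -3.12 (-2.97 relative to the median of all, SE 0.47, limma adjusted p = 0.00549). Bo9g104770 went the same way, with day 6 levels of 0.268, 0.6, 0.2 and 0.223 TPM, against 6.62, 4.36, 8.38 and 21.1 TPM on day 3. Its log2 difference was -2.87 (-2.72 relative to the median of all, SE 0.35, limma adjusted p = 0.0025). On day 1 it had been at 0.2, 0.375, 0.46 and 1.13 TPM, so that its 4 day 3 libraries stood above all 8 others.

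The most abundant feature of control roots, Bo2g055670, was chosen after its values were seen. It had 18820, 16904, 19305 and 15052 TPM on day 6, against 6852, 8890, 10368 and 12632 TPM on day 3, and the days did not overlap. It took 1.75% of all TPM on day 6 and 0.969% on day 3. The log2 difference was 0.88 (1.03 relative to the median of all, SE 0.20, limma adjusted p = 0.0218). Its mean was 0.34, 2.8 and 1.05 TPM in control leaves on days 1, 3 and 6, and 2412, 3770 and 9976 TPM in starved roots.

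The difference between day 6 and day 3 also varied with coding length. The median log2 difference was -0.04, -0.07, -0.15 and -0.28 from the quartile of shortest to that of longest features, and -0.01, 0.00, 0.00 and 0.01 without the 3 libraries that stood apart. Without those libraries 4072 features were called, 1480 higher (5.23%) and 2592 lower (9.16%), with 1794 of the 2078 calls among them, while rescaling by medians of ratios gave 829 higher and 1078 lower, and removal of the trend of each library with coding length gave 1685 and 1681. The 2078 calls became 5778 without library a of day 1, 672, 1069 and 637 without a, b and c of day 3, and 913, 1170, 1195 and 1322 without a, b, c and d of day 6.

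**Figure D2:**
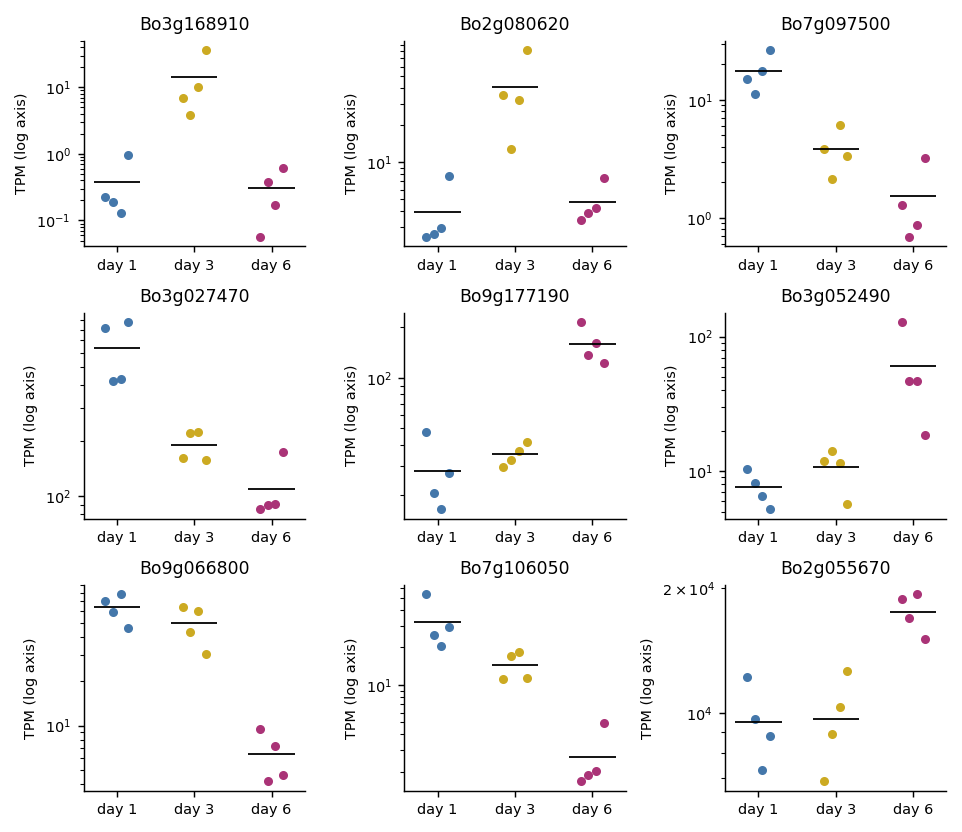
TPM of 9 features in the 12 control root libraries, on log axes that differ between panels; each point is a library and each bar the mean of the 4 libraries of a day. Bo3g168910 and Bo2g080620 are high on day 3 alone, Bo7g097500 and Bo3g027470 are lower on day 3 than on day 1, and Bo9g066800 and Bo7g106050 are lowest on day 6.

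Over the 3 days, the level of 535 features rose (1.89%) and that of 996 fell (3.52%), 1531 in all (5.41%), by the least squares slope of log2(TPM + 1) per day. Median slopes were 0.160 per day for the rises, -0.174 for the falls and -0.017 over all tested features. Of the rises, 147 reached a change of at least 1 over the 5 days, as did 358 of the falls. The rising features summed to 53242 ± 2920, 59505 ± 4886 and 89823 ± 5306 TPM on days 1, 3 and 6, and the falling ones to 64848 ± 1942, 50114 ± 2768 and 35153 ± 1381 TPM (SD, n = 4 libraries each). The direction of these sums is set by the choice of features; what they add is the amount of the total of 1000000 TPM involved. Control leaves averaged under 1 TPM for 217 of the 535 rises (40.6%) and 394 of the 996 falls (39.6%), against 24.5% of all features tested.

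Bo3g052490 and Bo9g177190 rose most steeply. Bo3g052490 averaged 7.58 ± 2.24 TPM on day 1 (SD, n = 4), and with the later levels given above its slope was 0.53 per day (SE 0.09, limma adjusted p = 0.00597). Without the 3 libraries that stood apart its slope was 0.41 per day (SE 0.08, limma adjusted p = 0.0192). Bo9g177190 had 47.6, 20.7, 16.5 and 27.2 TPM on day 1 and a slope of 0.52 per day (SE 0.05, limma adjusted p = 5.43e-04). Features named for the trend were taken only from those whose day 6 and day 1 libraries did not overlap. For both, most of the change lay between day 3 and day 6.

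Bo9g066800 had the steepest fall. Its levels were 71, 59.1, 78.2 and 46.5 TPM on day 1, then 64, 43.5, 60 and 30.7 TPM on day 3, and finally 9.48, 4.17, 7.32 and 4.63 TPM on day 6. Days 1 and 3 overlapped, and day 6 was below both. The slope was -0.66 per day (SE 0.05, limma adjusted p = 1.96e-04). In control leaves it had 1 read in 1 of 12 libraries, a level of 0.114 TPM, and was at 0 in the other 11.

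Bo7g106050 had the next steepest fall, with 53.4, 25.4, 20.6 and 29.1 TPM on day 1, then 11.2, 17.2, 18.5 and 11.3 TPM on day 3, and finally 1.68, 1.89, 2.05 and 4.98 TPM on day 6. No 2 of the 3 days overlapped. Its slope was -0.64 per day (SE 0.06, limma adjusted p = 4.47e-04). In control leaves it was above 0 in 1 of 12 libraries, at 0.378 TPM.

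All 4 features passed in each of the 24 settings run for them. Rescaling by medians of ratios gave 756 rises and 866 falls, removal of the trend with coding length 1192 and 1229, and leaving out the 3 libraries that stood apart 669 (2.36%) and 1456 (5.14%), 2125 in all, with 1074 of the 1531 calls among the last. The 1531 calls became 5409 without library a of day 1, 1004, 965 and 869 without b, c and d of day 1, and 735, 957 and 879 without a, b and c of day 6.

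**Figure D3:**
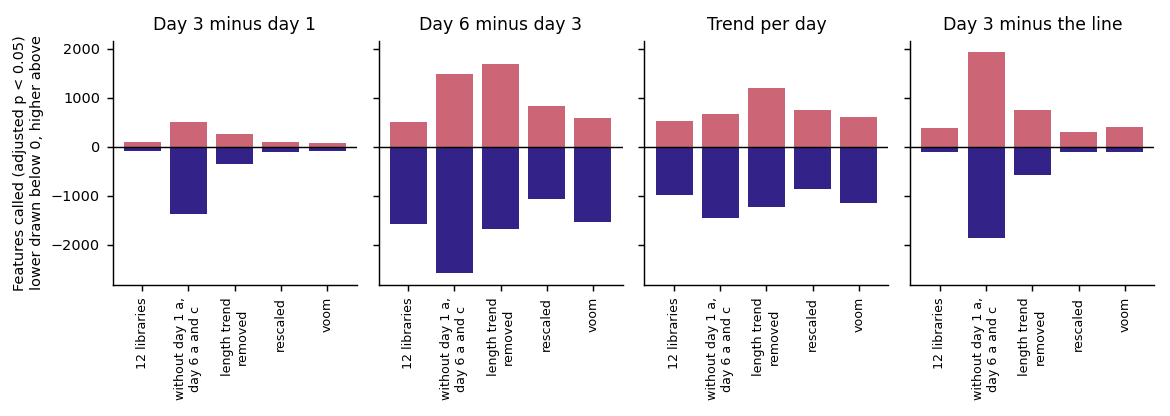
Number of features called at a limma adjusted p under 0.05 in control roots for 4 comparisons, higher above 0 and lower below it, with all 12 libraries, without library a of day 1 and libraries a and c of day 6, with the trend of each library with coding length removed, with rescaling by medians of ratios, and with voom on recovered reads. Leaving out the 3 libraries raised the calls between day 3 and day 1 to 1875, against 183 with all 12, and those for the day 3 departure to 3797, against 472.

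A separate test asked which features left the straight line on day 3, as day 3 minus the value of the line between the means of days 1 and 6. Day 3 was above the line for 372 features (1.31%) and below it for 100 (0.353%), 472 in all (1.67%). A size of at least 1 on the log2 scale was reached by 112 of the positive departures and 1 of the negative ones. The median of the positive departures was 0.76, against -0.59 for the negative departures and 0.10 over all features tested. Relative to the median of all, the medians were 0.66 and -0.68, so that typical sizes were alike. In 224 of the 372, all 4 day 3 libraries were above all 8 libraries of days 1 and 6, and in 65 of the 100 they were all below. Passing the test on these same libraries makes such a separation likely. Over all 28312 features the same held for 651 and 360. The highest of the 4 day 3 libraries was a, b, c and d in 97, 96, 23 and 156 of the 372, and in 6279, 7815, 6816 and 7402 of all 28312.

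Bo3g168910 and Bo2g080620 departed most, by 3.09 (2.99 relative to the median of all, SE 0.41, limma adjusted p = 0.0144) and 2.80 (2.7 relative to the median of all, SE 0.40, limma adjusted p = 0.015) on the log2 scale. Bo2g080620 was at 3.39, 3.88, 4.23 and 7.43 TPM on day 6, in the range of its day 1 levels and under every day 3 library. The lowest of the negative departures was that of Bo6g118770, at 7.61, 4.71, 4.63 and 5.08 TPM on day 1, then 2.62, 0.86, 1.88 and 2.61 TPM on day 3, and finally 2.96, 4.88, 5.28 and 4.14 TPM on day 6. Its departure was -1.03 (-1.13 relative to the median of all, SE 0.21, limma adjusted p = 0.0332). Every day 3 library was below every library of days 1 and 6, on 5 to 15 reads. Bo3g156840 had 36.4, 27.5, 19.4 and 27.8 TPM on day 1, then 11.5, 13, 14 and 25.5 TPM on day 3, and finally 45.5, 35.2, 32.2 and 34 TPM on day 6. Day 3 overlapped with day 1 through its library d, and the departure was -0.95 (-1.05 relative to the median of all, SE 0.21, limma adjusted p = 0.0419).

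Without the 3 libraries that stood apart, 1939 features were above the line (6.85%) and 1858 below it (6.56%), 3797 in all, with all 472 among them, and removal of the trend with coding length gave 755 and 572. The 472 calls became 1242 without library a of day 1, 131 and 165 without b and d of day 1, 272 and 856 without b and d of day 3, 189, 150, 223 and 163 without a, b, c and d of day 6, and 0 without a or c of day 3, where 3849 and 3761 features had an unadjusted p under 0.05. Without a or c of day 3, Bo3g168910 and Bo2g080620 were not called (limma adjusted p up to 0.0845), and Bo6g118770 and Bo3g156840 passed in 11 of 21 and 10 of 22 settings.

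The same slopes and departures were then computed in libraries that played no part in choosing the features. Of the 535 features that rose in control roots, 383 had a positive slope in starved roots (71.6%), against 31.9% of all tested features, and 184 of them were called there as rises (34%, against 6.08% of all). Of the 996 that fell, 747 had a negative slope in starved roots (75%), against 68.1% of all, and 268 were called as falls (26.9%, against 8.13% of all). The opposite call was made in starved roots for 19 of the 535 (3.55%, against 8.13% of all called as falls). For the 996 it was made for 58 (5.82%, against 6.08% of all called as rises). In control leaves, 377 of the 535 had a positive slope (70.5%, against 59.5% of all) and 85 were called as rises (15.9%, against 5.91%). There 568 of the 996 had a negative slope (57%, against 38.3% of all), and 157 were called as falls (15.8%, against 4.85%).

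The departures of day 3 were set beside those of the other libraries in the same way, where few features passed the test. Of the 372 positive departures, 315 were positive in starved roots (84.7%, against 46.9% of all), with a median of 0.14, against -0.01 over all, and 3 of the 372 were called as positive (0.806%), against 0.117% of all. In control leaves 295 were positive (79.3%, against 40.6% of all), with a median of 0.13, against -0.02 over all, and limma called none of them, against 0.0283% of all. Starved leaves had 279 positive (75%), against 66.9% of all. Of the 100 negative departures, 79 were negative in starved roots (79%, against 53.1% of all) and 51 in control leaves (51%, against 57.3%). In starved leaves 56 were negative (56%, against 30.9%).

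The 2 features with the largest departures in control roots were, in starved roots, far above the median of the 372. Bo3g168910 had 0, 0, 2.44 and 0.233 TPM in control leaves on day 3, and at most 0.291 TPM there on days 1 and 6. In starved roots it had 0, 0.207, 0 and 0.323 TPM on day 1, its day 3 libraries held 0.0627, 5.06, 2.19 and 6.72 TPM, and all 4 were at 0 on day 6. In starved leaves on day 3 it had 0.052, 5.5, 9.74 and 1.01 TPM, and no library of days 1 and 6 passed 0.799 TPM. Library a was the lowest of its 4 in both starved tissues on day 3. Bo2g080620 had day 3 levels of 1.63, 26.7, 16 and 16.1 TPM in starved roots, and there too library a was the lowest. The departure in starved roots was 1.73 for Bo3g168910 and 2.07 for Bo2g080620 (SE 0.38 and 0.47, limma adjusted p = 0.0974 and 0.0993).

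**Figure D4:**
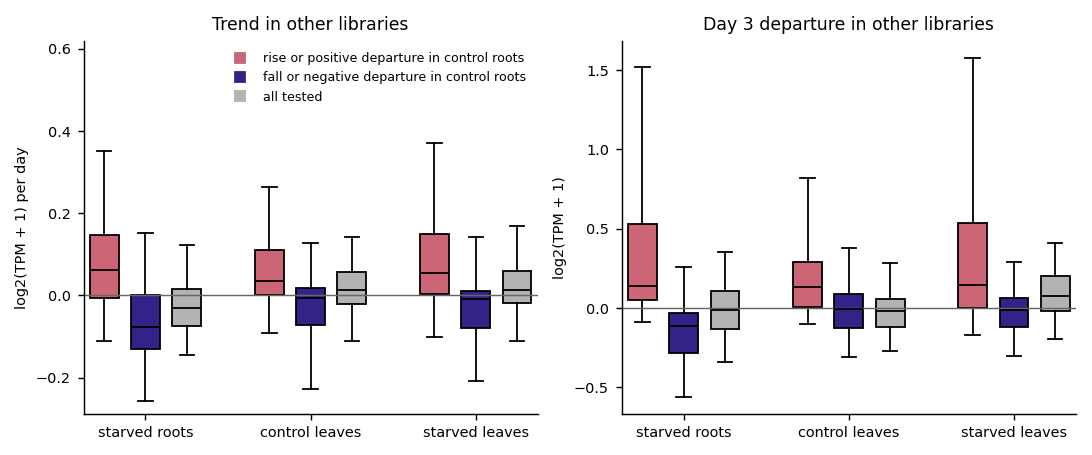
Slope per day (left) and departure of day 3 from the line (right), on the log2(TPM + 1) scale, in starved roots, control leaves and starved leaves, for the features called in control roots (535 rises, 996 falls; 372 positive and 100 negative departures) and for all 28312 tested features. Boxes give the median and quartiles over features and whiskers the 5th and 95th percentiles; in starved roots the median slope is 0.06 for the rises and -0.08 for the falls, against -0.03 for all.

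Where the course of control roots differed from that of starved roots was tested as the difference of the slopes, control minus starved, over 24 root libraries. It was positive for 437 features (1.54%) and negative for 715 (2.53%), 1152 in all (4.07%), and without the 3 control libraries that stood apart for 345 (1.22%) and 532 (1.88%), 877 in all. Bo8g038180 had no called trend in control roots, with means of 13.1, 27.8 and 16.1 TPM over the 4 libraries of days 1, 3 and 6 and single libraries between 10.5 and 36.3 TPM. Starved roots averaged 60.7 ± 23.7, 17.6 ± 8.51 and 6.89 ± 1.54 TPM (SD, n = 4 each). The slopes differed by 0.59 per day (SE 0.09, limma adjusted p = 5.35e-04). Bo3g017800 averaged 6.34 ± 1.24, 7 ± 2.79 and 7.93 ± 1.72 TPM in control roots and, in starved roots, 23.8 ± 0.859, 4.49 ± 0.677 and 2.68 ± 0.287 TPM, a difference of 0.58 per day (SE 0.06, limma adjusted p = 5.59e-06).

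Negative differences were led by Bo6g094710. Control roots had 46.3, 49.2, 23.6 and 71.8 TPM on day 1, then 3.01, 4.4, 5.63 and 41 TPM on day 3, and finally 11.5, 4.83, 8.75 and 11.3 TPM on day 6, where library d of day 3 is far above the other 3 of its day. Starved roots had 9.37 ± 8.73, 114.3 ± 29.6 and 190.6 ± 14.5 TPM (SD, n = 4 each), and the slopes differed by -1.26 per day (SE 0.15, limma adjusted p = 6.17e-05). In control roots alone its slope was -0.41 per day (SE 0.12, limma adjusted p = 0.0724). Bo8g076240 fell in control roots, with 5.8 ± 2.66, 1.99 ± 0.606 and 1.51 ± 0.196 TPM on days 1, 3 and 6 and a slope of -0.26 per day (limma adjusted p = 0.00902). Starved roots had 7.69 ± 3.06, 16.6 ± 3.97 and 98.2 ± 36.5 TPM, and the difference of slopes was -0.96 per day (SE 0.08, limma adjusted p = 2.22e-06).

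Some features with a trend in control roots also differed from starved roots. Bo7g106050, which fell over the days in control roots, averaged, in starved roots, 8.49 ± 2.78, 46.1 ± 5.4 and 22.8 ± 6.58 TPM (SD, n = 4 each), and its slopes differed by -0.86 per day (limma adjusted p = 5.59e-06). Bo3g027470 fell in control roots, with 639.0 ± 245.0, 191.0 ± 36.3 and 110.0 ± 42.5 TPM on days 1, 3 and 6. In starved roots it stood at 620.4 ± 184.7, 525.5 ± 56.2 and 642.8 ± 252.7 TPM, a difference of slopes of -0.49 per day (limma adjusted p = 0.0016). For Bo3g052490, which rose in control roots, the slopes differed by 0.19 per day (SE 0.13, limma adjusted p = 0.63). For Bo9g177190, which also rose, they differed by 0.49 per day (SE 0.14, limma adjusted p = 0.041). Among falls, the difference was -0.45 per day for Bo9g066800 (SE 0.07, limma adjusted p = 7.51e-04). It was -0.24 per day for Bo7g097500 (SE 0.10, limma adjusted p = 0.217).

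The same test of control roots minus control leaves, over 24 libraries, was positive for 628 features (2.22%) and negative for 1694 (5.98%), 2322 in all (8.2%), and without the 3 root libraries for 555 (1.96%) and 1524 (5.38%), 2079 in all. Features were admitted by their levels in control roots alone, and 684 of the 2322 (29.5%) averaged under 1 TPM in control leaves, as did 24.5% of all tested; 127 of them were at 0 in all 12 leaf libraries, so that their difference is the root slope. Rescaling by medians of ratios gave 1245 and 1437, removal of the trend with coding length 1631 and 1732, and leaving out library a of day 1 in roots 4780 in all. Bo7g096650 rose in control roots, with 55.1 ± 7.24, 111.7 ± 29.7 and 189.8 ± 55.7 TPM on days 1, 3 and 6, and fell in control leaves, with 483.1 ± 147.4, 282.9 ± 94.5 and 117.0 ± 38.8 TPM (SD, n = 4 each). The slopes differed by 0.75 per day (SE 0.08, limma adjusted p = 2.33e-06). Bo8g108830 had the same difference of 0.75 (SE 0.10, limma adjusted p = 1.05e-04), with a slope of -0.02 per day in control roots and -0.77 in control leaves. Control roots had 0.916 ± 0.245, 1.19 ± 0.408 and 0.8 ± 0.158 TPM and control leaves 22.6 ± 7.79, 10.8 ± 9.75 and 0.642 ± 0.456 TPM.

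Bo7g097500 moved the other way in the 2 tissues. Control roots averaged 17.6 ± 6.47, 3.83 ± 1.65 and 1.52 ± 1.17 TPM on days 1, 3 and 6, and control leaves 40.1 ± 5.63, 57.4 ± 3.82 and 81.6 ± 8.96 TPM (SD, n = 4 each). The slope was -0.56 per day in control roots and 0.20 per day in control leaves (limma adjusted p = 8.38e-04 and 0.00118), a difference of -0.76 per day (SE 0.07, limma adjusted p = 1.11e-06). For Bo7g106050 the difference was -0.66 per day (SE 0.07, limma adjusted p = 3.33e-06). As this feature had reads in 1 of 12 control leaf libraries, its leaf slope could only be near 0 and the difference restates its slope in control roots. These 8 differences between courses passed in every setting run for them. None of these settings left out a starved root or leaf library.

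**Figure D5:**
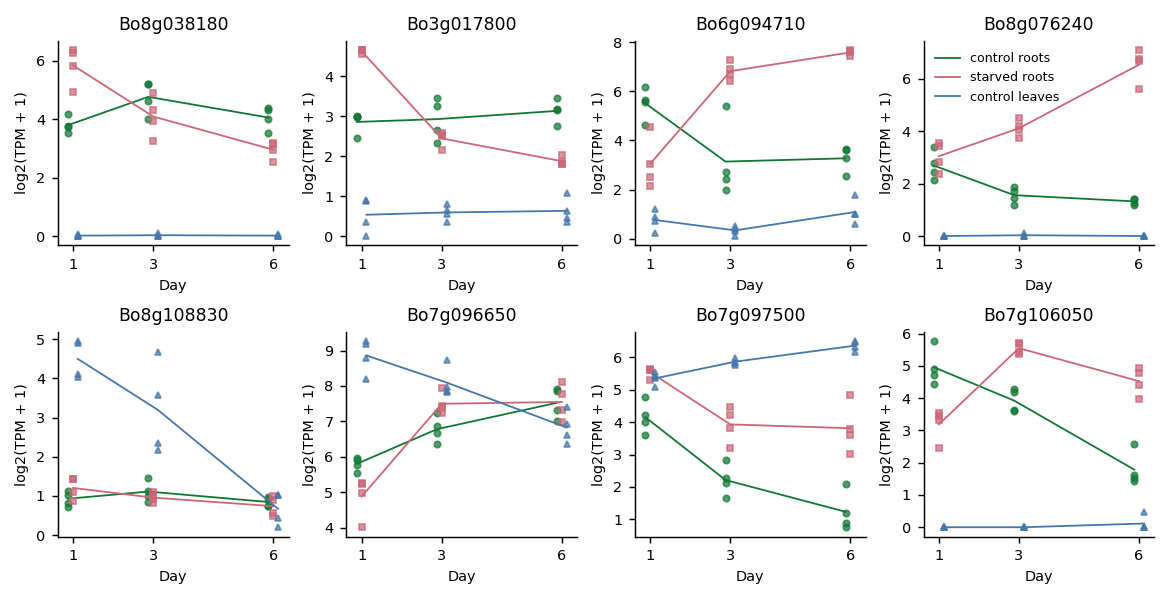
Values of log2(TPM + 1) in single libraries (points) and their means (lines) on days 1, 3 and 6. Series are control roots, starved roots and control leaves. In the top row are the 2 named features of largest positive and the 2 of largest negative difference in slope between control and starved roots. The bottom row holds those between control roots and control leaves. Axes differ between panels; in the top row Bo8g076240 falls in control roots and climbs in starved roots, and in the bottom row Bo7g097500 falls in control roots and climbs in control leaves.

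Some calls fell on neighbouring IDs, where the next ID is the next tested one in order and untested IDs between are skipped. Of the trend rises with a tested next ID, 33 of 521 (6.33%) had a next ID that had also risen, against 1.9% of all IDs. For the trend falls it was 52 of 965 (5.39%), against 3.52%. Between day 6 and day 3 it was 25 of 485 for the rises (5.15%), against 1.77%, and 113 of 1553 for the falls (7.28%), against 5.67%. Whether such neighbours are near-identical copies that share reads was not tested.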

How the data were processed

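The 12 control root libraries were grouped by label. Column-purified, DNase-treated RNA was sequenced by DNBseq, per the labels' protocols. Tools named in the submitters' processing notes, without role or order, are DESeq2, STAR 2.7.10a, cutadapt 4.1 and FastQC 0.11.9. Not given in the sources used here are build, annotation and counter. As deposited by the authors, values are TPM, summing to 1000000 per library, so each value is relative to its library. Whole reads and coding lengths were recovered from the steps between values, for each of the 44911 features with values above 0 in at least 2 of the 48 libraries (tolerance 0.02 reads, largest deviation 0.000974); 99.8% of Bo lengths were multiples of 3. Every replicate pair differed by more than sampling noise, with a chi-square of at least 5.62 per degree of freedom.

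Limma 3.58.1 in R 4.3.3 (lmFit, eBayes with trend) was fitted to log2(TPM + 1), with 1 term per day over 12 libraries, or per day and group over 24 for differences of slopes, and Benjamini-Hochberg adjustment over 28312 features. The line at day 3 is 0.6 of day 1 plus 0.4 of day 6. Procedures were tested on simulated data in which no library was shifted with coding length, so these tests cannot show how such a shift affects the calls. Alternatives were a pseudocount of 0.1, no filter, a minimum of 5 TPM, rescaling by medians of ratios, voom and array weights. Others were a log2 difference of at least 1, the letter as a block, fewer or more libraries and leaving out each control root library. Added after seeing the data were removal of the trend with coding length, leaving out 3 libraries, and the block with 8 libraries. Reads were recovered with pandas 2.3.3 and numpy 2.4.6 under Python 3.11.15.

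Named features are up to 2 rises and 2 falls of largest difference per comparison, among called features with a mean of at least 1 TPM and, between days, no overlap of libraries (day 6 against day 1 for the trend). Members, rule and comparisons were chosen with earlier results of these data known. The RefSeq gene table (53125 genes) shared 0 IDs with the deposited table, so gene lists, HAK5 and markers were not analysed here.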

Additional observations from a re-analysis of the deposited data

Results flagged for a closer look

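Of 66 groups of 4 libraries of the named features, 5 had a library farther from the other 3 than Dixon's critical value allows. Distances were taken on the log2(TPM + 1) scale, and chance gives about 1 in 20. On day 1, library d of control roots was high for Bo3g168910, at 0.949 TPM, and for Bo2g080620, at 7.8 TPM, both of which were highest on day 3. On day 6, library d was high for Bo3g027470, at 173.7 TPM, and for Bo7g106050, at 4.98 TPM, both of which fell over the days. Library a of day 1, one of the 3 libraries that stood apart, was low for Bo3g017800, at 4.49 TPM.

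Courses that differed by the test of the difference itself numbered 1152 between control and starved roots and 2322 between control roots and control leaves. Of the 2322, 684 averaged under 1 TPM in control leaves and 127 were at 0 in all 12 of those libraries, where the difference is the slope of control roots alone. Control minus starved, the slopes per day differed by 0.59 for Bo8g038180, 0.58 for Bo3g017800, -1.26 for Bo6g094710 and -0.96 for Bo8g076240 (limma adjusted p = 5.35e-04, 5.59e-06, 6.17e-05 and 2.22e-06). Control roots minus control leaves, they differed by 0.75 for Bo8g108830, 0.75 for Bo7g096650, -0.76 for Bo7g097500 and -0.66 for Bo7g106050 (limma adjusted p = 1.05e-04, 2.33e-06, 1.11e-06 and 3.33e-06). Bo7g106050 had reads in 1 of 12 control leaf libraries, so its value restates its fall in control roots.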

How the results depend on the processing

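No direction was reversed in 537 refits of the named features, of which 481 passed and 56 did not. Of 142 counts, 80 were within 1.5 times the reported one. Array weights, which gave library a of day 1 a weight of 0.0859, raised all counts, to 5100 for day 3 against day 1, 9521 for day 6 against day 3, 10294 for the trend, 5977 for the day 3 departure, 4222 for control minus starved roots and 12953 for control roots minus control leaves. With a log2 difference of at least 1, counts were 93 for day 3 against day 1, 492 for day 6 against day 3, 505 for the trend (over 5 days), 113 for the departure and 1173 for roots minus leaves. Without a filter they were 108 for day 3 against day 1 and 272 for the departure. Removal of the trend with coding length gave 603, 3366, 2421 and 1327 for the first 4 comparisons, and leaving out the 3 libraries gave 1875 for day 3 against day 1, 4072 for day 6 against day 3 and 3797 for the departure. With only the 8 libraries of the contrast, limma called 0 features for day 3 against day 1 (3435 at an unadjusted p under 0.05; voom over 12 libraries called 163) and 3977 for day 6 against day 3. All 24 root libraries gave 438 for day 3 against day 1. Leaving out each control root library in turn gave 0 to 306, 637 to 5778, 735 to 5409 and 0 to 1242 for the first 4 comparisons. It gave 877 to 1400 for control minus starved roots and 1750 to 4780 for roots minus leaves. No starved root or leaf library was left out. The causes were not tested.

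Letters were not taken as pairs of libraries in the main fits, and whether they mark pairs was not tested. Same-letter deviations on different days were correlated at -0.504 to 0.696, with 7 of 12 over 0.1. Libraries correlated best with their own letter in 14 of 24 cases, each among the 4 libraries of another day. With the letter as a replicate block, calls were 281 for day 3 against day 1 (183 without it) and 836 for the departure (472). For day 6 against day 3 they were 2662 (2078 without it), and for the trend 1934 (1531 without it). In a fit of only 8 libraries with the block, 0 features were called for day 3 against day 1 (3364 at an unadjusted p under 0.05). For day 6 against day 3 such a fit called 2960, against 3977 without the block.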
